A study of Tupaia belangeri with 6 samples.

Results

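GABA-A receptors are chloride channels that open when GABA, the main inhibitory transmitter of the adult cortex, binds between their alpha and beta subunits. Most cortical receptors join alpha and beta subunits with a gamma subunit, which holds the receptor at synapses together with the scaffold protein gephyrin. Receptors with the alpha5 subunit are found mostly outside synapses, as are those that join alpha4 to delta, and the kind of alpha subunit also sets how a receptor responds to benzodiazepines. Transcripts of 7 subunit genes, GABRA2, GABRA3, GABRA4, GABRA5, GABRB1, GABRB2 and GABRD, were examined here in the prefrontal cortex (PFC) of the tree shrew (Tupaia belangeri). The genes were chosen by exact gene name, so that copies whose names carry the suffix "li" were left out. Of the 7 genes, 6 had a row, 1 each, among the 95863 genes of the abundance tables. GABRD, the delta subunit, had no row of that name in the tables and was not analysed here.

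Polyadenylated RNA was sequenced from 6 adult animals, 3 females (numbers 1, 3 and 4) and 3 males (numbers 1, 4 and 5), with 1 library per animal. The labels give no treatment and no genetic change in any animal. The authors anaesthetized each animal with isoflurane, then ketamine and pentobarbital, before dissection. The sample sheet of the study lists each male at a greater age than each female, so sex and age cannot be told apart. Levels are given in TPM, the transcript abundance scaled by transcript length and by library, so that genes can be compared within a library, and between libraries as shares of each. TPM keeps no sequencing depth, so no interval for counting error is given. In bulk tissue, fewer cells of a type and less RNA per cell cannot be told apart.

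The cortical label was checked against marker genes. SLC17A7 and TBR1, markers of cortical excitatory neurons, were between 783 and 1569 TPM and between 183 and 343 TPM. The TBR1 row spans 612829 bases, so its TPM may not be the level of TBR1 alone. Of 7 neuron markers, 5 had a row, and NEFL was listed at 0 in each library. The 4 striatal projection neuron markers with a row, of 8 listed, summed to 303 to 506 TPM in females 1 and 3 and male 1. They summed to 113 to 157 TPM in female 4 and males 4 and 5, a split that does not follow sex. PENK and TAC1 made up most of each sum. RGS9 followed the split, and DRD1 (1.20 to 7.06 TPM) did not. The 3 oligodendrocyte markers with a row, of 6 listed, had sums of 348 to 482 TPM in the 3 females but of 80.7 to 236 TPM in the 3 males. These sums did not overlap between the sexes, and MAG, a myelin protein gene, made up most of each. The MBP row covers only 893 bases, so its 7.07 to 13.7 TPM may not be the level of the whole gene. Part of the TPM of each library fell on loci to which StringTie assigned no strand, 2.30% to 3.33% in females and 5.16%, 2.67% and 7.88% in males 1, 4 and 5.

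The 6 subunits summed to between 315 and 463 TPM per library. By TPM, GABRA3 and GABRB2 were the most abundant of them, followed by GABRA5 and GABRA2, with GABRA4 and GABRB1 below them (mean over 6 libraries 108, 106, 72.4, 54.3, 19.3 and 13.9 TPM). GABRA2 exceeded GABRA4 2.81-fold and GABRA4 exceeded GABRB1 1.41-fold as geometric means, each in 6 of 6 libraries (exact sign-flip permutation test, two-sided, p = 0.031, the smallest that 6 libraries allow, adjusted p = 0.078 over 5 neighbouring pairs). With 5 pairs, these 2 steps did not reach an adjusted p of 0.05. GABRB2 exceeded GABRA5 1.44-fold in 5 of 6 libraries (exact permutation p = 0.063, adjusted p = 0.10), with female 4 as the exception. GABRA5 and GABRA2 changed places between libraries (exact permutation p = 0.19, adjusted p = 0.23), as did GABRA3 and GABRB2, each of which was the higher in 3 libraries (exact permutation p = 0.72, adjusted p = 0.72).

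**Figure D1:**
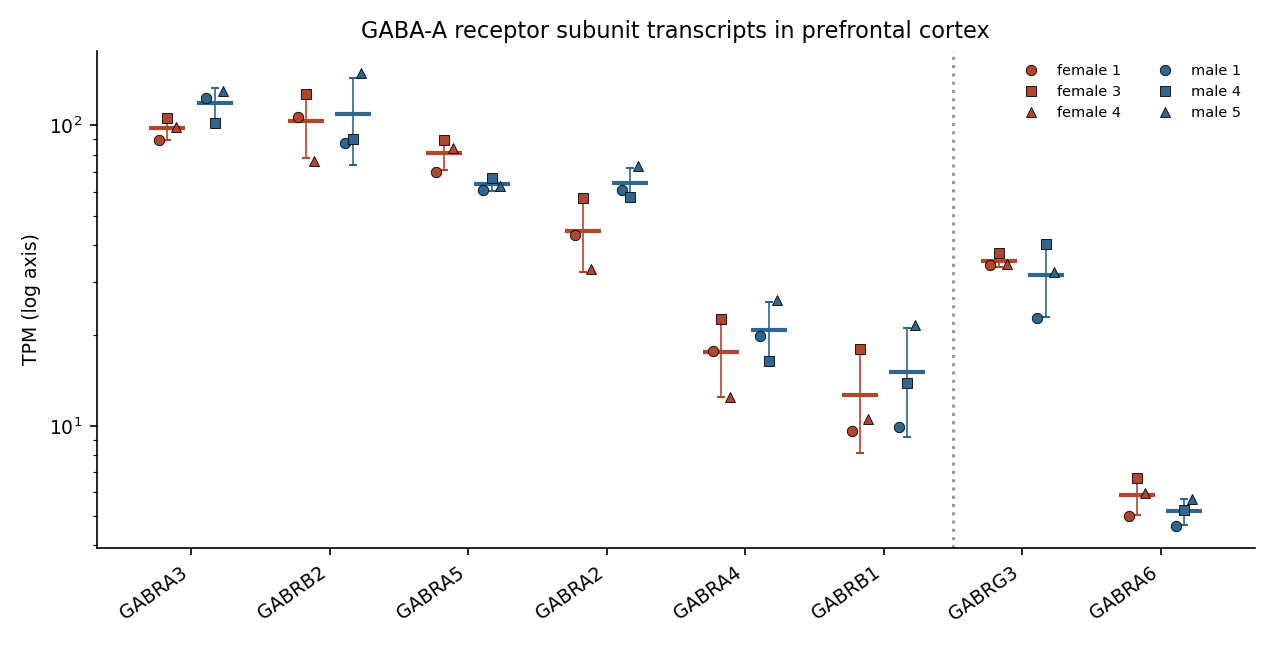
TPM (log axis) of the 6 subunits and, right of the dotted line, of GABRG3 and GABRA6; points are libraries, bars are means and error bars SD of 3 females (red) and 3 males (blue). GABRA3 and GABRB2 are near 100 TPM, GABRA4 and GABRB1 are lowest of the 6, and most genes overlap between the sexes.

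The alpha subunits form part of the GABA and benzodiazepine binding sites. GABRA3, which encodes alpha3, is X-linked, from 96150514 to 96349922 on the plus strand of chromosome X (coordinates are those of the TS_3.0 genome). Its level was 89.5, 106 and 98.7 TPM in females 1, 3 and 4, against 124, 102 and 130 TPM in males 1, 4 and 5. Male 4 lay below female 3, so the sexes overlapped, although they did not when libraries were scaled to summed neuron markers. On the log2(TPM + 1) scale, which understates changes of low genes, the female mean minus the male mean was −0.27 (SE 0.17, limma adjusted p = 0.97). GABRA3 varied least of the 6 subunits between libraries, with a coefficient of variation of 14.3%.

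GABRA2 encodes alpha2, found largely at synapses and on the axon initial segment, and lies on the minus strand of chromosome 20 from 32598322 to 32774102. It was at 43.1, 57.2 and 33.4 TPM in females 1, 3 and 4, against 61.1, 57.8 and 73.4 TPM in males 1, 4 and 5. Each male was above each female, with male 4 only just above female 3, and on the FPKM scale the sexes overlapped. The log2 difference was −0.54 (SE 0.22), with an unadjusted p of 0.041 and an adjusted p of 0.93 in the limma fit. Without female 4, which was the lowest library, the difference was −0.35.

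GABRA5, the alpha5 subunit, lies on the plus strand of chromosome 22 from 29838149 to 29889288. It had the opposite order of the sexes, at 69.9, 89.4 and 84.2 TPM in females 1, 3 and 4, against 61.1, 67.0 and 62.9 TPM in males 1, 4 and 5. Each female was above each male, and the males lay close together (63.7 ± 3.01 TPM, SD, n = 3). The log2 difference was 0.34 (SE 0.17), which did not pass the test (limma, unadjusted p = 0.073, adjusted p = 0.93). The non-overlap of GABRA5 was lost when libraries were scaled to summed neuron markers or quantile normalized. The oligodendrocyte marker sums differed between the sexes in the same direction as GABRA5, and their part in these differences was not tested.

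GABRA4, the alpha4 subunit, lies on the minus strand of chromosome 20 from 33125396 to 33367824. It was at 17.7, 22.7 and 12.5 TPM in females 1, 3 and 4, against 19.9, 16.5 and 26.2 TPM in males 1, 4 and 5. The sexes overlapped, and the log2 difference was −0.24 (SE 0.28, limma adjusted p = 0.94). It was −0.028 without female 4, −0.073 without male 5, −0.39 without male 4 and −0.44 without female 3.

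Beta subunits complete the GABA binding site and carry sites for several anaesthetics. GABRB2, encoding beta2, lies on the minus strand of chromosome 18 from 46762611 to 47031312. It was at 106, 127 and 76.2 TPM in females 1, 3 and 4, against 87.3, 90.3 and 149 TPM in males 1, 4 and 5. The highest and the lowest library thus came from different sexes with the others between them, and the log2 difference was −0.06 (SE 0.27, limma adjusted p = 0.99). Its sign turned without male 5 (0.18) and without female 4 (0.14).

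GABRB1, encoding beta1, lies on the plus strand of chromosome 20 from 33421233 to 33908939. It was at 9.58, 18.0 and 10.6 TPM in females 1, 3 and 4, against 9.88, 13.9 and 21.7 TPM in males 1, 4 and 5. The sexes overlapped, with the largest coefficient of variation of the 6 subunits (35.6%) and a log2 difference of −0.22 (SE 0.35, limma adjusted p = 0.96). Without male 5 its difference was 0.05. The TPM of GABRB1 rested on few reads. Its mean coverage was only 0.131 to 0.243 reads per base, which over the whole span of the locus corresponds to at most 426 to 792 reads of 150 bases per library. Its ratio of TPM to coverage, relative to the ratio at loci without a strand in the same library, was 93.1 to 112, whereas the median of named genes was about 1.5 in each library. Why this relative ratio differs between genes was not tested, and transcript lengths and exon structure were not checked. The relative ratio was 5.76 to 6.29 at GABRA5, 1.49 to 1.51 at GABRA4 and 1.002 to 1.38 at GABRA2, GABRA3 and GABRB2. TPM and coverage thus differed most at GABRB1 and GABRA5. The order of the subunits changed with this choice. Coverage scaled to the library (the coverage multiplied by the TPM to coverage ratio of its loci without a strand) averaged 101 for GABRB2, 84.1 for GABRA3, 49.2 for GABRA2, 12.9 for GABRA4, 12.1 for GABRA5 and 0.134 for GABRB1. GABRA5, above GABRA2 by TPM, had a mean just under that of GABRA4 by scaled coverage.

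No subunit of the 6 was called at an adjusted p under 0.1 in limma, where 0.0174% of the 28740 genes tested were called (0.0143% of autosomal and 0.134% of X-linked genes). At an unadjusted p under 0.05, 1 of the 6 differed (GABRA2), beside 5.01% of all genes in either direction and 2.61% with males higher. The sexes did not overlap for 2 of the 6 (GABRA2 and GABRA5), beside 9.81% of all genes, 4.99% with males higher and 4.82% with females higher. The median difference of the 6 was −0.23, with 5 lower in females, and that of all genes tested was −0.03. This count depended on male 5, without which GABRB1 (0.055) and GABRB2 (0.18) were higher in females and GABRA4 was at −0.073.

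**Figure D2:**
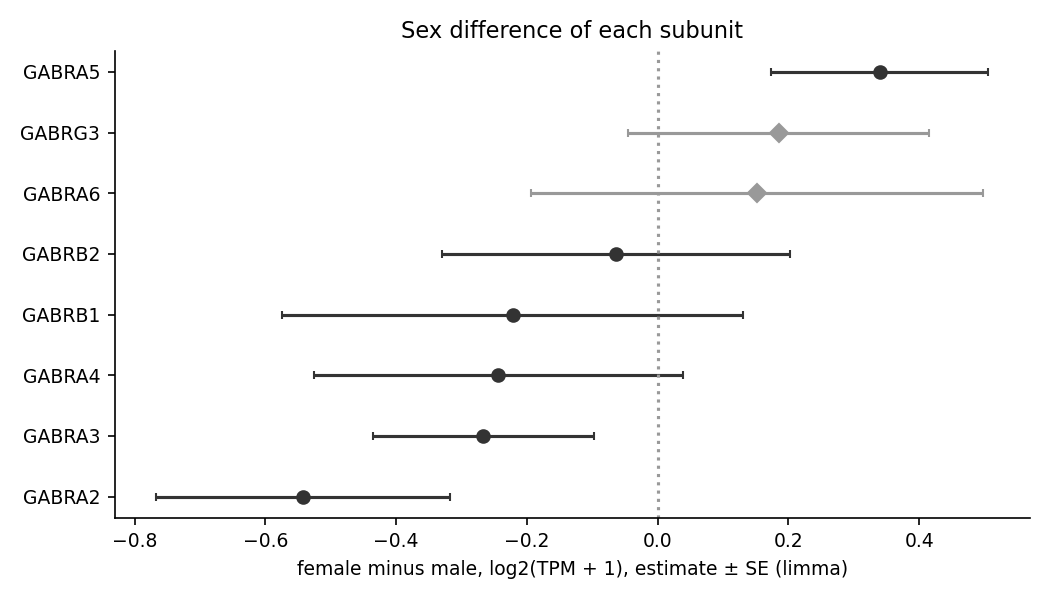
Female minus male mean of log2(TPM + 1), with the SE from limma (3 females, 3 males) for the 6 subunits (black circles) and for GABRG3 and GABRA6 (grey diamonds). GABRA5 (0.34) is highest, GABRA2 (−0.54) is lowest, and none passed an adjusted p of 0.1.

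Subunit composition does not depend on a factor that scales all genes of a library alike. GABRA2 made up 12.8%, 13.6% and 10.6% of the summed TPM of the 6 subunits in females 1, 3 and 4, against 16.8%, 16.6% and 15.8% in males 1, 4 and 5. GABRA5 made up 20.8%, 21.3% and 26.7% in these females, against 16.8%, 19.3% and 13.6% in these males. The sexes did not overlap for either share, and each difference had the smallest p that 3 against 3 animals allow (exact permutation test, two-sided, p = 0.10, adjusted p = 0.30 over 6 shares). The shares of GABRA3 (25.3% to 34.1%), GABRB2 (24.1% to 32.2%), GABRA4 and GABRB1 overlapped. By scaled coverage, the GABRA5 share was 5.23% to 6.66% in females and 3.01% to 4.75% in males, and the GABRA2 share 16.0% to 19.5% and 19.6% to 19.8%. Neither overlapped, but the GABRA2 shares of female 3 and male 1 then nearly met (exact permutation p = 0.10, adjusted p = 0.30, for both genes).

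**Figure D3:**
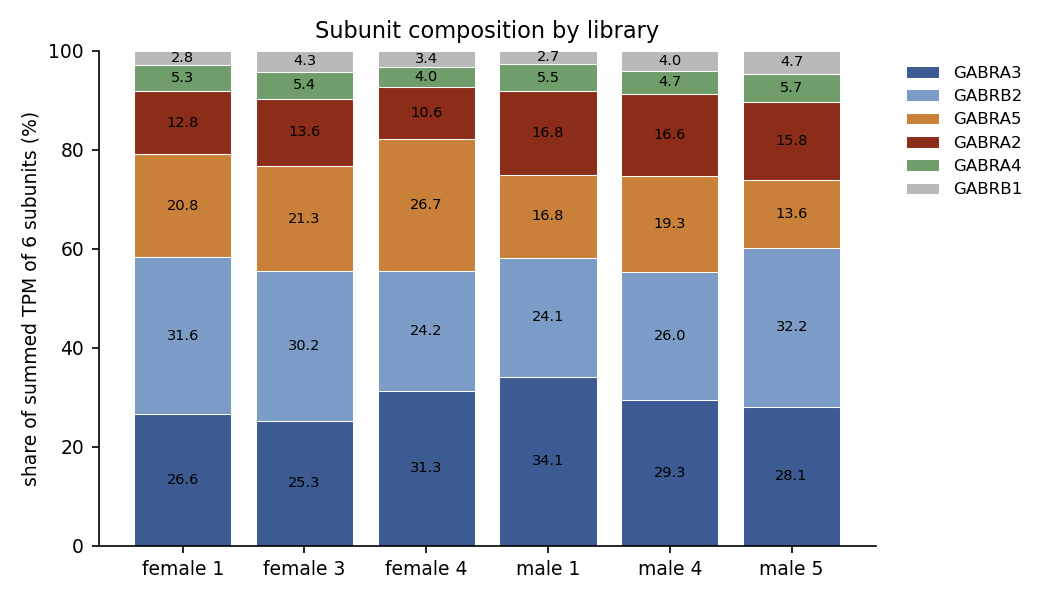
Share of each subunit in the summed TPM of the 6 subunits (%), 1 bar per library. The GABRA2 share is 10.6% to 13.6% in females and 15.8% to 16.8% in males, and the GABRA5 share is 20.8% to 26.7% in females and 13.6% to 19.3% in males.

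Ratios of subunits within a library showed the same contrast. The ratio of GABRA5 to GABRA2 was 1.62, 1.56 and 2.52 in females 1, 3 and 4, against 0.999, 1.16 and 0.857 in males 1, 4 and 5. By TPM, GABRA5 thus exceeded GABRA2 by over 1.5 times in each female, and the genes were near parity in males. The log2 ratio was 0.90 higher in females (exact permutation p = 0.10, adjusted p = 0.20 over 4 ratios). The ratio of GABRA4 plus GABRA5, typical of receptors outside synapses, to GABRA2 plus GABRA3 was 0.661, 0.686 and 0.732 in the 3 females, against 0.438, 0.522 and 0.438 in the 3 males. It varied little within a sex, with an SD of the log2 ratio of 0.075 in females and 0.15 in males, and its log2 difference was 0.58 (exact permutation p = 0.10, adjusted p = 0.20). This permutation test cannot give a p below 0.10 with 3 animals per sex. GABRA3 to GABRA2 (log2 difference 0.28, exact permutation p = 0.20, adjusted p = 0.27) and GABRB2 to GABRB1 (0.17, exact permutation p = 0.50, adjusted p = 0.50) overlapped between the sexes. The difference of GABRA3 to GABRA2 was 0.087 without female 4, 0.076 from scaled coverage and 0.58 with the locus MSTRG.31727, which overlaps GABRA2, added to it. Shares and ratios here use the same TPM values and are not separate lines of evidence.

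**Figure D4:**
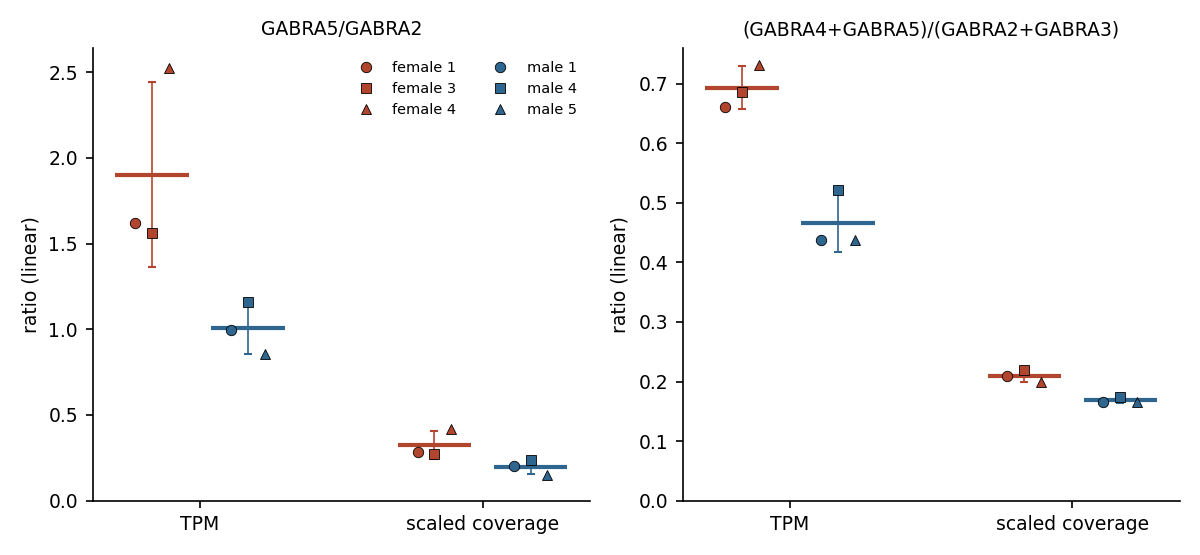
Linear ratio of GABRA5 to GABRA2 (left) and of GABRA4 plus GABRA5 to GABRA2 plus GABRA3 (right) from TPM and from scaled coverage; points are libraries, bars are means and error bars SD of 3 females (red) and 3 males (blue). The sexes do not overlap in either measure, while the female values from TPM (0.661 to 0.732 at right) are further from the male values than those from scaled coverage (0.200 to 0.219 against 0.166 to 0.174).

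The GABRA2 difference depended on how abundance was measured. Scaled coverage, the mean read depth over the exons of a locus brought to the scale of its library, does not use transcript lengths. On that measure GABRA2 was 43.0, 56.9 and 33.3 in females 1, 3 and 4, against 48.5, 47.4 and 66.4 in males 1, 4 and 5. Female 3 was then above males 1 and 4, and the log2 difference was −0.30 (SE 0.23, limma unadjusted p = 0.24, adjusted p = 0.92). TPM exceeded scaled coverage at GABRA2 by a ratio of 1.26, 1.22 and 1.11 in males 1, 4 and 5, whereas the ratio was 1.002, 1.006 and 1.002 in females 1, 3 and 4. The sexes did not overlap in this ratio, which was the case, with males higher, for 2.61% of 17673 genes with coverage in each library, counting gaps over 0.001. By scaled coverage, 1 of the 6 subunits did not overlap, beside 9.77% of all genes. This was GABRA5, which did not overlap on either measure (scaled coverage 12.1 to 15.5 in females and 9.71 to 11.4 in males). The ratio of GABRA5 to GABRA2 from scaled coverage was 0.272 to 0.416 in females and 0.153 to 0.240 in males, again without overlap between the sexes (log2 difference 0.71). By this measure GABRA5 was below GABRA2 in each of the 6 libraries, so the direction between the genes turned while that between the sexes did not.

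An unnamed locus, MSTRG.31727, overlaps 2379 bases at the 5′ end of GABRA2 on the opposite strand (chromosome 20 from 32771724 to 32775508, plus strand). It was at 5.78, 7.15 and 0.692 TPM in females 1, 3 and 4, against 14.5, 24.3 and 27.2 TPM in males 1, 4 and 5. Each male was above each female, as for GABRA2, and the log2 difference was −2.30 (SE 0.58, limma unadjusted p = 0.0038, adjusted p = 0.93). The library protocol names no step that keeps the strand, so reads of GABRA2 and of this locus cannot be told apart where they overlap, and the part of this locus in the GABRA2 values was not tested.

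**Figure D5:**
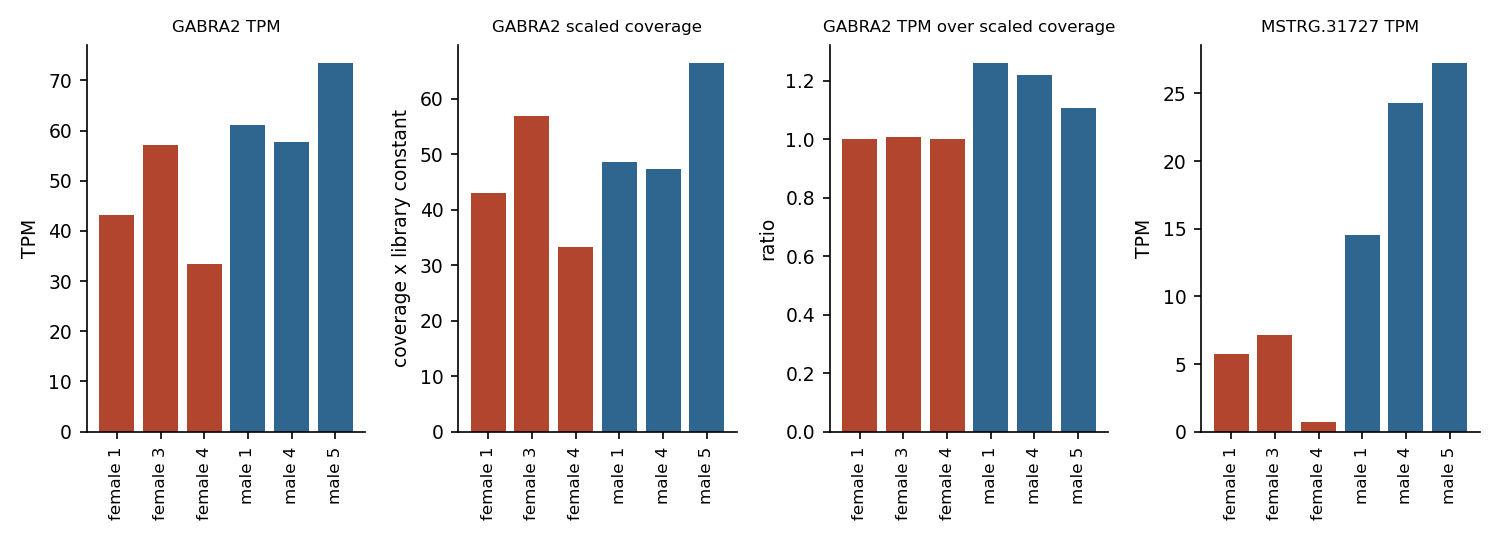
From left to right, TPM, scaled coverage and their ratio for GABRA2, and TPM of the overlapping locus MSTRG.31727, 1 bar per library (females red, males blue). Males lie above females in TPM, in the ratio (1.11 to 1.26 against 1.002 to 1.006) and at the overlapping locus, and the sexes overlap in scaled coverage.

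Other loci overlapped the subunits as well. Inside GABRA4, 6 short loci without a strand summed to 0, 0 and 0.155 TPM in females 1, 3 and 4, against 2.43, 0.483 and 45.8 TPM in males 1, 4 and 5. The sum of male 5 exceeded GABRA4 itself (26.2 TPM), and male 5 also had the largest share of TPM without a strand (7.88%). These loci were not added to GABRA4. At the start of GABRB1, RPL21li93 on the opposite strand was at 19.6, 19.8 and 16.9 TPM in females 1, 3 and 4, against 8.75, 11.7 and 10.3 TPM in males 1, 4 and 5, without overlap (log2 difference 0.82, SE 0.23, limma unadjusted p = 0.0072, adjusted p = 0.93). MSTRG.31774 (0 to 7.99 TPM) and MSTRG.31777 (0 to 4.31 TPM) within GABRB1, and TSORFli1277 (0 to 2.68 TPM) at the 5′ end of GABRA4, overlapped between the sexes.

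GABRA2, GABRA4 and GABRB1 followed each other on chromosome 20 with gaps of 351 and 53.4 kb. GABRA5 lay 9.46 kb from GABRG3 on chromosome 22. GABRB2 overlapped the 5′ end of GABRA6, which lies on the opposite strand of chromosome 18, by 1885 bases. GABRA3 lay 85.7 kb from GABRE on chromosome X.

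Of 9 further subunit genes examined, 6 had a row and 2, GABRG3 and GABRA6, entered the test. Neither was called or had an unadjusted p under 0.05 (limma, adjusted p 0.94 and 0.97, log2 differences 0.18 and 0.15). GABRG3, a gamma subunit, was at 22.8 to 40.4 TPM and GABRA6, known for its expression in cerebellar granule cells, at 4.65 to 6.70 TPM. Their ratios of TPM to scaled coverage were 10.7 to 11.1 and 10.1 to 12.9, and GABRA6 rested on at most 420 to 783 reads per library. GABRE and GABRQ were above 0 only in female 1, at 0.280 and 0.363 TPM, and GABRP and GABRR3 were listed at 0 in each library. The GABRQ row covers only 743 bases, so its TPM may not be the level of the whole gene. GABRG1, GABRR1 and GABRR2 had no row of that name.

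Genes that anchor, traffic or set the driving force of GABA-A receptors were taken as a list of 23. Of these, 18 had a row and 17 were tested, and none was called or had an unadjusted p under 0.05 (limma, adjusted p from 0.93 to 0.997), beside 0.0174% and 5.01% of all genes, so that these counts of 0 say little about the list. Their median log2 difference was 0.15, beside −0.03 for all genes. The 5 most abundant were NSF, GABARAPL2, SLC12A5, CLPTM1 and INSYN1. NSF acts in membrane fusion (492 to 894 TPM), and GABARAPL2 belongs to the GABARAP family (355 to 476 TPM). SLC12A5 encodes the neuronal chloride exporter KCC2 (205 to 484 TPM). CLPTM1 retains receptors in the endoplasmic reticulum (289 to 370 TPM), and INSYN1 is an inhibitory synapse protein (71.9 to 207 TPM). UBQLN1 was listed at 0 in each library.

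The genes nearest to each subunit in pattern were found by the root mean square difference of mean-centred log2(TPM + 1) over the 6 libraries, among 11269 named genes. They were WDR7 (0.03) and PLCB1 (0.05) for GABRB2, PARP9 (0.04) and SEC24A (0.04) for GABRA4, ERO1A (0.04) and MILR1 (0.05) for GABRA3, ABHD5 (0.04) and ASS1 (0.05) for GABRA5, and SEMA5A (0.06) and DLG2 (0.06) for GABRA2. GABRB1 had the least close neighbours, FZD6 (0.11) and ZNRF3 (0.12). For scale, the subunits varied around their own means by 0.18 (GABRA3) to 0.42 (GABRB1) on the same scale. With 6 libraries and this many candidates, close patterns are a description of these libraries.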

How the data were processed

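RNA from the PFC was enriched for polyadenylated RNA and sequenced as paired reads of 150 bases. The authors aligned reads to TS_3.0 with HISAT2 2.2.1, then assembled, merged and quantified transcripts with StringTie 2.2.1 in each animal (versions from the submitters' processing notes). The authors deposited TPM, scaled by length and library, FPKM, which differs from TPM by 1 factor per library, and coverage, the mean depth of a locus, unscaled; the deposited tables hold no read counts, so no count test was run. TPM of rows with the same gene ID and chromosome were summed. A gene was tested if 3 or more of 6 libraries reached 0.1 TPM, as log2(TPM + 1), female against male, with limma 3.58.1 (mean-variance trend) in R 4.3.3, with Benjamini-Hochberg adjustment for autosomal and X-linked genes separately, at a threshold of 0.1. The male-only segments of chromosomes X and 26 were left out. This fit was first tested on simulated data. Shares and ratios were compared by exact permutation of animals, neighbouring levels by exact sign flips. GABRD had no row, so the planned GABRA4/GABRD ratio was not computed and GABRD was left out of the ratio of GABRA4 plus GABRA5. Scaled coverage, the restriction to loci with a strand and GABRA2 summed with MSTRG.31727 were chosen after seeing the data. Members and gene lists were chosen with earlier results of these data known. Named genes are the members, other subunits (some genes of the lists are not reported here), the 5 most abundant partner genes and any partner with an unadjusted p under 0.05, the 2 genes nearest in pattern to each member, and overlapping loci with a mean of at least 1 TPM. Other alternatives were pseudocounts of 0.1 and 0.01, no filter or a filter at 1 TPM, median-ratio, quantile, stranded-locus and neuron-marker scaling, FPKM, loci kept apart, limma without trend, joint adjustment, a replicate block and each animal left out. Python 3.11.15, numpy 2.4.6, pandas 2.3.3, scipy 1.17.1 and matplotlib 3.10.9 were used.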

Additional observations from a re-analysis of the deposited data

How the results depend on the processing

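No member was called in any of the 21 alternatives to the limma fit, and GABRA2, GABRA3, GABRA4 and GABRA5 kept their direction in each. GABRB2 turned to 0.020 with the replicate block, and ranged from −0.23 to 0.18 when 1 animal was left out, and GABRB1 from −0.48 to 0.055. The number of members at an unadjusted p under 0.05 was 0 instead of 1 without the trend and with scaled coverage, and 0 to 1 with 1 animal left out (0 without female 1, female 4, male 1 or male 5). The number without overlap was 1 instead of 2 under quantile normalization (GABRA5 lost), FPKM and scaled coverage (GABRA2 lost), and 3, with GABRA3, without female 3 or male 4, where the share of all genes without overlap also rose, from 9.81% to 19% and 26%. It stayed at 2 with neuron-marker scaling, where GABRA5 was lost and GABRA3 gained. By scaled coverage, the share differed by −1.70 percentage points for GABRA2, 1.84 for GABRA5 and 0.00075 for GABRB1, against −4.11, 6.36 and −0.31 by TPM. With 1 animal left out, the female minus male share ranged from −0.69 to 0.047 percentage points for GABRA4, −0.85 to 0.12 for GABRB1 and −0.42 to 3.63 for GABRB2. In the same way the log2 ratio of GABRB2 to GABRB1 differed by −0.039 to 0.31, and GABRA3 exceeded GABRB2 by −0.031 to 0.12. With MSTRG.31727 added to GABRA2, the GABRA3 to GABRA2 difference was 0.58 and that of GABRA5 to GABRA2 was 1.19. With scaled coverage, the difference of the ratio of GABRA4 plus GABRA5 to GABRA2 plus GABRA3 was 0.31 instead of 0.58. Causes were not tested. Taking the strongest row of a member changed nothing, since each has 1 row.

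Numbers 1 and 4 occur in both sexes, but the animals differ. Deviations of same-numbered animals were correlated across genes at 0.00098 (number 1) and 0.038 (number 4). Pairs with different numbers ranged from −0.059 to 0.063. These values cannot show whether same-numbered animals were handled together. The replicate block called 3 genes in all instead of 5 and changed no call among the members, and the GABRA5 to GABRA2 difference was 0.91 within numbers. Over all genes, limma called 1 gene without the trend, 8 without male 4, and 3 without female 1, 3 or 4 or male 5. With 3 animals per sex and no read counts, small differences and low levels such as GABRB1 were not resolved.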
